A study of Mus musculus with 9 samples.

Results

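BV2 microglia treated with a low dose of silica-coated magnetic nanoparticles were compared with non-treated BV2 cells by RNA-seq. BV2 cells are a microglial line of the mouse, immortalized for culture. The particles, MNPs@SiO2(RITC), have a cobalt ferrite core inside a silica shell that carries the dye rhodamine B isothiocyanate. The low dose was 10 µg/ml for 12 h, given in the sample labels as 0.01 µg/µl, and a high dose of 100 µg/ml (0.1 µg/µl) for 12 h was the other treatment of the series. Each group held 3 of the 9 libraries, so 6 libraries enter the comparison of low dose with control. All groups are the same cell line, and no source used here says that the 3 libraries of a group came from separate cultures, so p-values measure only the spread between these libraries, which may be technical. The values are FPKM, fragment numbers scaled to the length of the transcript and to the mapped fragments of the library. Of the 40993 genes in the deposited table, 11161 reached 1 FPKM on average across the 9 libraries and were tested on the log2(FPKM + 1) scale, on which the change of a low gene is understated. Sequencing depth is not part of an FPKM table. Estimated from the steps between low values, it was 13.1, 14.7 and 14.9 M (mega) fragments in control and 14.9, 15.5 and 13.7 M fragments in low-dose libraries, which is approximate, since only 70.1% to 79.2% of the low values used lay within 0.25 of a whole number of fragments.

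Microglia are the resident macrophages of the brain. They bind particles through scavenger and other receptors, take them up by endocytosis and phagocytosis, and deliver them to lysosomes, where hydrolases act at the acid pH kept by a proton pump. Particles that carry metal or damage lysosomes are known to be able to engage antioxidant, metal-handling, stress and inflammatory gene programs, whose transcription is often preceded by a brief pulse of immediate early genes such as the AP-1 factors Fos and Jun.

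The libraries carried the RNA of macrophage-lineage cells. All 10 general markers of microglia and macrophages were above the filter, and together they came to 2958, 2868 and 2714 FPKM in the libraries of control cells and to 2684, 2615 and 2883 FPKM in those of low-dose cells. The most abundant of them was Lyz2, the lysozyme of myeloid cells, and Csf1r, the receptor for colony-stimulating factor 1, was at 138, 145 and 143 FPKM without particles and 144, 139.6 and 138 FPKM with them. Most markers that define homeostatic microglia in the brain were nearly absent in this line. P2ry12, Cx3cr1, Fcrls, Gpr34 and Olfml3 reached at most 0.197 FPKM in any of the 6 libraries, Sall1 reached at most 0.0123 FPKM, Siglech was listed at 0, and Tmem119 lay between 1.87 and 2.65 FPKM. Summed markers of neurons, astrocytes, fibroblasts and lymphocytes stayed at or under 1.40 FPKM in each library. Of the endothelial list, Kdr (65.1 to 71.2 FPKM) and Flt1 (20.9 to 23.9 FPKM) were detected while Cldn5 was listed at 0 and Cdh5 and Tek stayed under 0.1 FPKM, and of the oligodendrocyte list Cnp was at 10.4 to 11.97 FPKM while Mog and Olig2 were listed at 0.

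The transcriptome differed very little between low-dose and control cells. No gene reached an adjusted p of 0.05 (0% of 11161, limma with Benjamini-Hochberg adjustment, two-sided), and the adjusted p was 1 for every gene tested, the smallest unadjusted p being 0.000552. Leaving out a library gave 1 call without control library 1, 2 without control library 2, 1 without low-dose library 1 and 0 without any of the others. Without adjustment, 366 genes (3.28%) had a p under 0.05, 194 higher (1.74%) and 172 lower (1.54%), and 75 of them (0.672%) also differed by at least 1.5-fold in mean FPKM, the fold used in the study. The 366 became 667 with only the 6 libraries in the fit. The balance turned to 224 higher and 289 lower without control library 3 and to 155 higher and 184 lower without low-dose library 3. With the replicate number as a block it was 180 higher and 184 lower. The same fit called 236 genes (2.11%) for high dose against the same control libraries and 95 genes (0.851%) for high against low dose. The low-dose fold changes were centred at 0 (median log2 fold change 0.00015), with 5586 genes on the positive and 5555 on the negative side. Their median size was 0.059, 70.2% were under 0.1 in size, and the 90th percentile of size was 0.20. For 1199 genes the ranges of the 3 low-dose and the 3 control libraries did not overlap (10.7%), 685 above (6.14%) and 514 below (4.61%), a count that was 2073 to 2838 with any one library left out.

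Libraries of different groups were about as far apart as libraries of one group. Over all genes tested, the SD of the log2 difference between 2 libraries was 0.40 to 0.46 for the 3 pairs of control libraries (mean 0.43), 0.37 to 0.40 for the 3 pairs of low-dose libraries (mean 0.38) and 0.37 to 0.46 for the 9 pairs across the groups (mean 0.41). Control library 2 was the farthest from the other 5, with a mean SD of 0.44, and low-dose library 2 the nearest, with 0.39. Each gene has the same weight in these distances, and the 127 genes with no transcript of 300 nt or more varied far more than the others, as described next. No distance was computed without these short genes, so the distances say little about the longer genes.

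Large fold changes were mostly those of very short genes. Of the 84 genes with a log2 fold change over 1 in size, 64 had no transcript of 300 nt or more, although such genes made up only 127 of those tested. The SD of the log2 fold change was 1.78 in short genes and 0.14 in genes with a longer transcript. By biotype it was 0.12 over 9865 protein-coding genes, 0.50 over 809 pseudogenes and 2.35 over 40 small RNA genes. Short genes took 26262, 35945 and 8824 FPKM of the control libraries and 9215, 8569 and 11029.8 FPKM of the low-dose libraries, out of 519840, 519600 and 477176 and 480633, 478836 and 492137 FPKM in all. Their part in the levels of other genes was not tested.

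**Figure D1:**
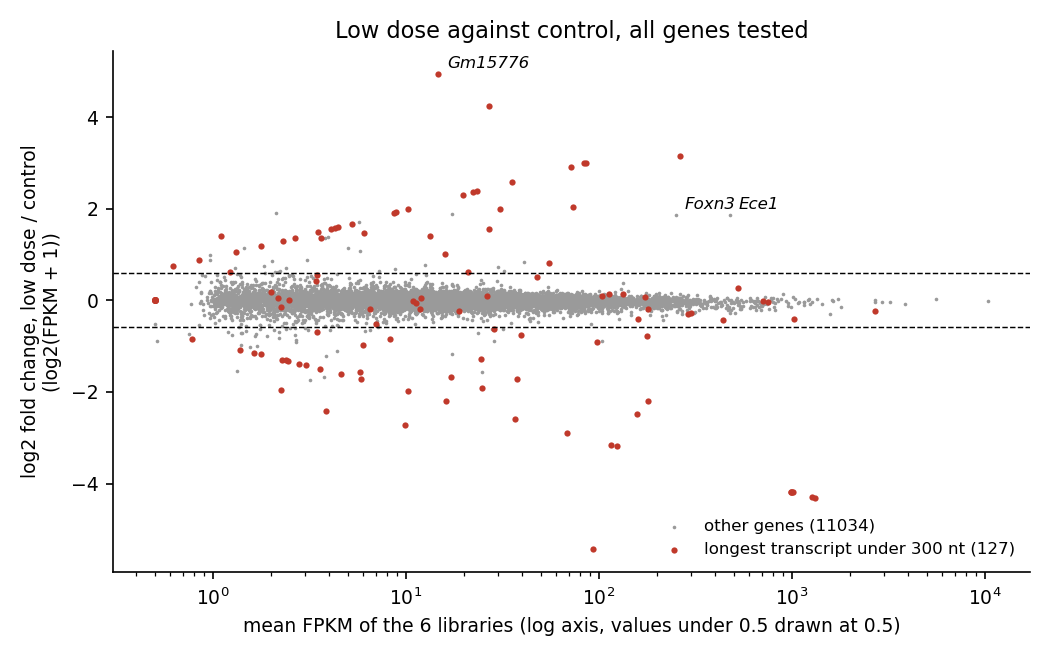
Log2 fold change of low dose over control (vertical axis, on log2(FPKM + 1)) against the mean FPKM of the 6 libraries (horizontal log axis) for the 11161 genes tested, with 127 genes whose longest transcript is under 300 nt in red and a 1.5-fold change marked by dashed lines. Nearly all grey points lie between the dashed lines, and the wide scatter belongs to the short genes.

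A missed threshold does not show that a gene stayed the same, so the 95% interval of each gene, from the same limma fit, was set against fixed bounds on the change in FPKM. Intervals are per gene and not simultaneous. For 9341 genes (83.7%) the whole interval lay within a 1.5-fold change in either direction, and for 4248 genes (38.1%) within 1.2-fold. The share differed between abundance classes. Among genes of 1 to 5 FPKM, 42.96% lay within 1.5-fold, against 89.7% at 5 to 20 FPKM, 96.8% at 20 to 100 FPKM and 93.6% at 100 FPKM or more. Within 1.2-fold lay 1.22% of the lowest and 60.1% of the highest class. For the 1820 genes (16.3%) outside the wider bound, a 1.5-fold change was not excluded at this depth and replication. The narrowest intervals among genes of at least 100 FPKM included Naa50, an N-terminal acetyltransferase (242, 236 and 243 FPKM in control cells against 239.8, 243 and 238 FPKM at low dose), with a fold of 0.938 to 1.07. Mcm6, a subunit of the replicative helicase, was at 194, 197 and 197 FPKM in control and 199, 197 and 195 FPKM in low-dose libraries, a fold of 0.946 to 1.07, and Etf1, the translation termination factor, at 125, 124 and 126 FPKM without particles and 125, 124 and 128 FPKM with them, a fold of 0.945 to 1.07. In these 3 genes the libraries of the groups interleaved. Others of the 10 narrowest separated the groups by small amounts, Lrrc59, a ribosome-binding membrane protein, at 201, 204 and 199.7 FPKM in control cells against 208, 217 and 211 FPKM at low dose, Mat2a, which makes S-adenosylmethionine, at 192, 193 and 195 FPKM in control and 183, 189 and 188 FPKM in low-dose libraries and Psmd2, a proteasome subunit, at 319, 323 and 317 FPKM without particles and 314, 315 and 307 FPKM with them, each with an interval that reached 0.

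**Figure D2:**
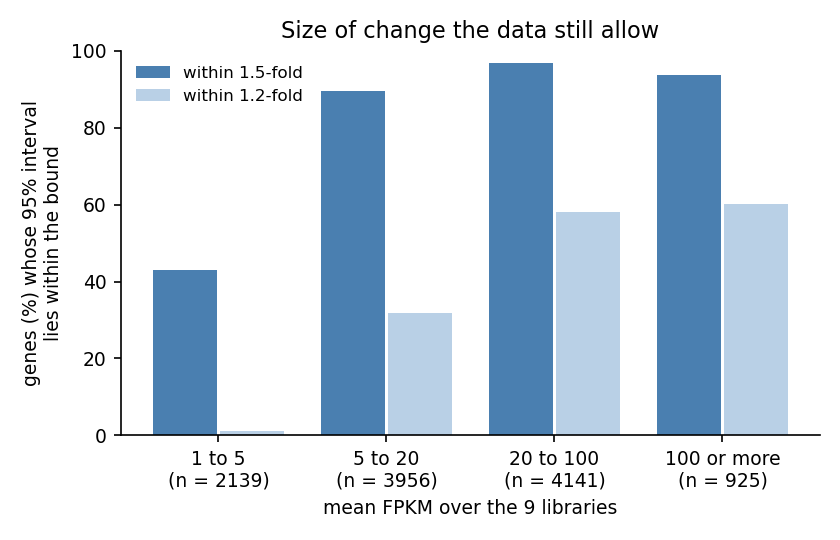
Percent of genes whose 95% interval for low dose over control lay within a 1.5-fold (dark bars) or a 1.2-fold change (light bars), by class of mean FPKM over the 9 libraries, with the number of genes under each class. The share within 1.5-fold goes from 43.0% at 1 to 5 FPKM to 96.8% at 20 to 100 FPKM.

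Reference genes gave the same picture. Actb (cytoskeletal actin) was at 2609, 2761 and 2718 FPKM in control cells against 2659.7, 2771 and 2649 FPKM at low dose, a fold of 0.912 to 1.09. Gusb, a lysosomal glucuronidase used for normalization, was at 235, 242 and 237 FPKM in control and 244, 240.2 and 239 FPKM in low-dose libraries, a fold of 0.944 to 1.09. Tfrc, the transferrin receptor, was at 648, 653 and 679.9 FPKM without particles and 684, 653 and 638 FPKM with them, a fold of 0.91 to 1.09. None of the 3 separated the groups. Gapdh was at 32.03, 29.3 and 26.7 FPKM in control cells against 31.2, 30.6 and 26.4 FPKM at low dose, which is far under Actb, and its level is uncertain because it has many near-identical pseudogenes that can share its reads.

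The stability was then read family by family. The 34 families with members in the test held 1037 different genes, and a further 188 matched members were below the filter and were not tested. No family member passed the adjusted threshold. Without adjustment, a p under 0.05 was found for 32 (3.09%), 16 higher and 16 lower, next to 3.28% of all genes. The interval lay within 1.5-fold for 946 members (91.2%, next to 83.7% of all genes) and within 1.2-fold for 497 (47.9%, next to 38.1%). The family medians ran from -0.11 for ribosomal proteins to 0.11 for AP-1 and immediate early genes, and 29 of the 34 were within 0.05 of 0. In 8 families the interval of every member tested lay within 1.5-fold. These were the proteasome (39 genes), the cell cycle (56), glycolysis and hypoxia-responsive genes (30), cholesterol synthesis (32), scavenger receptors (34), disease-associated microglia genes (30), the unfolded protein response (29) and heat shock proteins (21). The median levels of these 8 families were 43.4 to 234 FPKM. In that range 93.6% to 96.8% of all genes lay within 1.5-fold, so most genes of such levels did too.

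**Figure D3:**
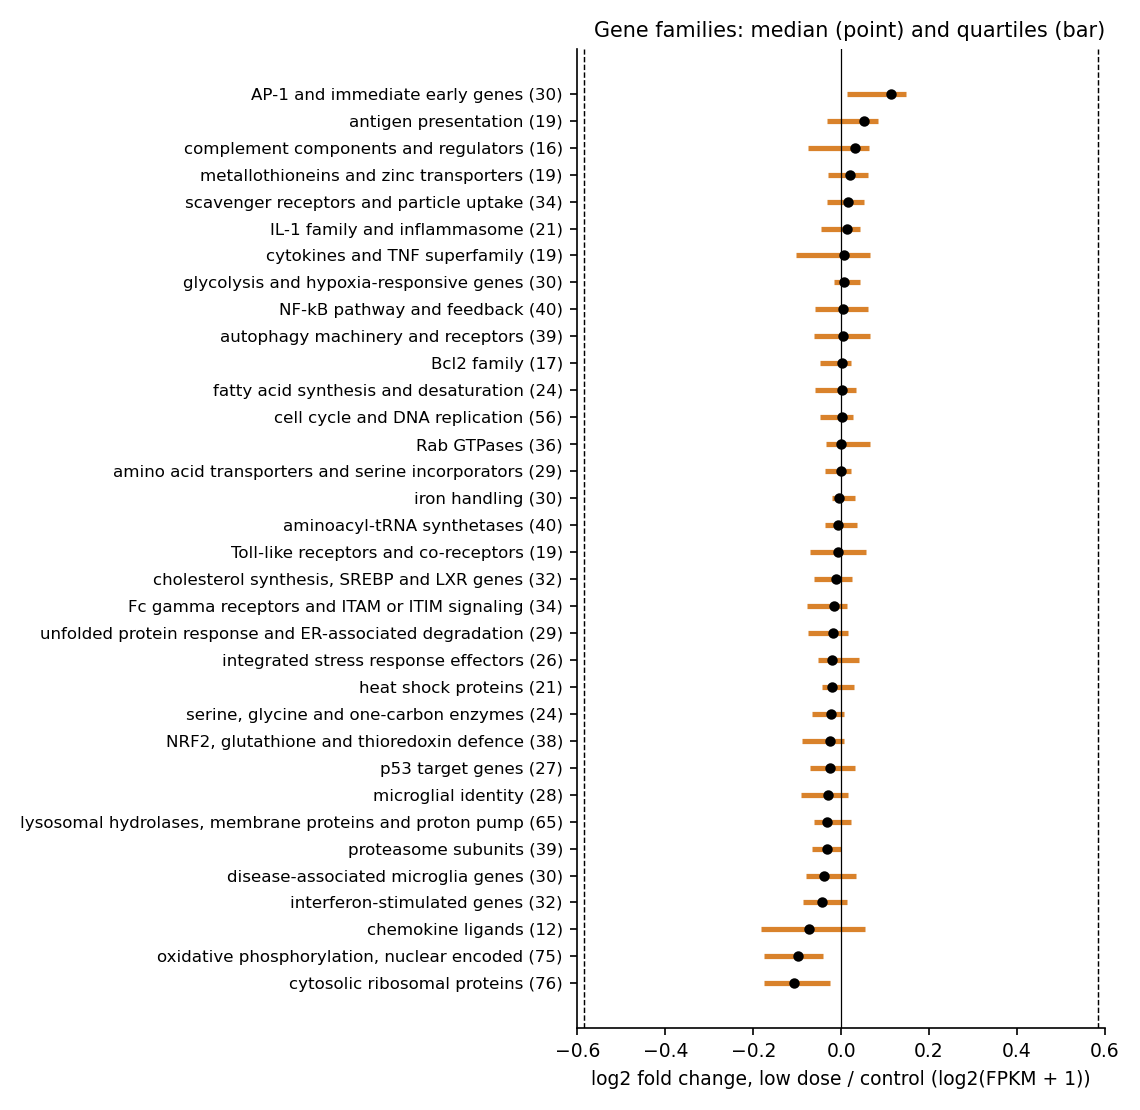
Median log2 fold change of low dose over control for each gene family (points) and its lower to upper quartile over members (bars), with the number of genes tested in parentheses and a 1.5-fold change marked by dashed lines. All medians lie between -0.11 and 0.11, and no bar reaches a dashed line.

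The families closest to particle handling were largely stable, where stable means an interval within 1.5-fold. Over the 6 families of uptake, lysosome, autophagy, vesicle traffic and metal handling, 219 genes were tested, 4 (1.83%, next to 3.28% of all genes) had an unadjusted p under 0.05 and 209 (95.4%, next to 83.7% of all genes) lay within 1.5-fold. The median levels of these families were 19.1 to 102 FPKM, a range in which 89.7% to 96.8% of all genes lay within 1.5-fold, so the share is near that of other genes of such levels. The same limit holds for the share of all genes beside each family below, which is not matched for level. Of the receptors, Cd68, a scavenger receptor of endosomes and lysosomes, was at 465, 420.5 and 378 FPKM in control and 391, 395 and 431 FPKM in low-dose libraries. Cd36, which binds oxidized lipids, was at 136, 139 and 135 FPKM without particles and 130.0, 132 and 134 FPKM with them, slightly lower in each low-dose library. Marco, a collagen-like scavenger receptor that binds particles, was at 93.8, 103 and 94.1 FPKM in control cells against 79.3, 85.7 and 82.3 FPKM at low dose, with a log2 fold change of -0.23 (95% interval -0.46 to 0.0064). All 3 low-dose values of Marco were below the control values, and its interval reached 0. At high dose Marco was at 58.04, 42.00 and 50.8 FPKM, lower again, with the same control libraries. Flot1, a membrane microdomain protein, was the only scavenger or uptake gene with an unadjusted p under 0.05, at 11.6, 11.5 and 10.5 FPKM in control and 14.4, 11.5 and 14.9 FPKM in low-dose libraries, and its low-dose library 2 lay within the control range.

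In lysosomes, 62 of 65 genes lay within 1.5-fold (95.4%, next to 83.7% of all genes), and the family median was -0.032 (0.0038 under quantile normalization). Ctsd, the main aspartic protease of lysosomes, was at 1626, 1648 and 1549 FPKM without particles and 1550.3, 1591 and 1697 FPKM with them. Gpnmb, a lysosomal stress glycoprotein and the most abundant member, was at 1752, 1729 and 1654 FPKM in control cells against 1769, 1756 and 1736 FPKM at low dose. Both sets of libraries overlapped. Ctsc, the protease that activates granule serine proteases, was lower in all 3 low-dose libraries, with 205, 202 and 199 FPKM in control and 189, 183 and 190.1 FPKM in low-dose libraries and a log2 fold change of -0.11 (95% interval -0.22 to -0.0036). Of the autophagy genes 37 of 39 lay within 1.5-fold (94.9%, next to 83.7% of all genes). Sqstm1, the cargo receptor p62, was at 170.3, 184 and 204 FPKM without particles and 181, 192 and 196 FPKM with them. Pik3r4, the regulatory subunit Vps15 of the class III phosphatidylinositol kinase, had the smallest p of the family, at 10.96, 10.3 and 11.8 FPKM in control cells against 14.2, 14.7 and 15.6 FPKM at low dose, a log2 fold change of 0.40 (95% interval 0.17 to 0.62), with no overlap. It was at 9.64, 12.9 and 11.9 FPKM at high dose, near the control values. Rab GTPases had 34 of 36 genes within 1.5-fold (94.4%, next to 83.7% of all genes) and none with an unadjusted p under 0.05.

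Most genes of metal handling were stable at this dose of a cobalt and iron particle. The interval lay within 1.5-fold for 29 of 30 iron handling genes (96.7%) and for 17 of 19 metallothioneins and zinc transporters (89.5%). For all genes the share was 83.7%. At 20 to 100 FPKM, where both family median levels lay (38.6 and 29.1 FPKM), it was 96.8% of all genes. Fth1, the ferritin heavy chain that stores iron, was the most abundant gene of all families, at 11074, 10384 and 9831 FPKM in control and 10183, 10325 and 10575 FPKM in low-dose libraries, with a log2 fold change of -0.008 (95% interval -0.25 to 0.24). Ftl1, the light chain, was at 1213, 1213 and 1207 FPKM without particles and 1229.9, 1212 and 1257 FPKM with them. Hmox1, which breaks down haem and releases its iron, was at 312, 317 and 300.1 FPKM in control cells against 299, 293 and 329 FPKM at low dose. Mt1, a metallothionein that binds zinc and other metals, was at 729, 548 and 426 FPKM in control and 432, 546 and 546 FPKM in low-dose libraries, and the interval of its log2 fold change was wide, -0.63 to 0.36, with control library 1 high. Mt2 was spread in the same way, at 269.6, 143 and 128 FPKM without particles and 116, 163 and 187 FPKM with them. Cp (ceruloplasmin), a copper-carrying ferroxidase of low abundance, was the only gene of both families with an unadjusted p under 0.05. It entered the test only through the control libraries, the one group in which it averaged 1 FPKM or more. Cp was at 2.48, 2.26 and 1.42 FPKM in control cells against 0.806, 1.11 and 0.813 FPKM at low dose, and at 0.558, 0.47 and 0.146 FPKM at high dose. Since the filter favoured a gene that was high in control alone, its p is no evidence of a difference.

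Stress programs were also stable in most members. Over the 6 stress and survival families, 153 genes were tested, 9 (5.88%) had an unadjusted p under 0.05 (3.28% of all genes), 5 higher and 4 lower, and 142 (92.8%, next to 83.7% of all genes) lay within 1.5-fold. Hspa5, the main chaperone of the endoplasmic reticulum, was at 856, 857 and 849 FPKM in control and 857, 851 and 814 FPKM in low-dose libraries. Atf4, the transcription factor of the integrated stress response, was at 201, 196 and 192 FPKM without particles and 194, 184 and 195 FPKM with them, and Ddit3 (CHOP), a factor linked to cell death under stress, at 13.6, 13.7 and 11.8 FPKM in control cells against 15.1, 11.4 and 9.21 FPKM at low dose. Neither the lowest nor the highest values of these genes separated the groups. Hsp90ab1, the constitutive cytosolic HSP90, was at 1971, 1884 and 1824 FPKM in control and 1693, 1769.8 and 1653 FPKM in low-dose libraries, a log2 fold change of -0.15 (95% interval -0.28 to -0.025), which turned to 0.17 under quantile normalization, as described among the processing alternatives. Hsf2, a heat shock transcription factor, was at 8.83, 8.96 and 9.29 FPKM without particles and 10.2, 9.66 and 10.6 FPKM with them.

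The antioxidant family had members with a small p in both directions. Of its 38 genes tested, 27 were on the negative side (71.1%, next to 49.8% of all genes). Their mean deviation from the control mean was 0.053, -0.023 and -0.03 in control and -0.072, -0.06 and 0.0032 in low-dose libraries, so the groups overlapped. Gclc, the catalytic subunit of the rate-limiting enzyme of glutathione synthesis, was at 28.5, 29.8 and 29.8 FPKM in control cells against 31.9, 32.5 and 33.7 FPKM at low dose, a log2 fold change of 0.15 (95% interval 0.044 to 0.26). Txnip, the inhibitor of thioredoxin, was at 93.8, 97.5 and 89.5 FPKM in control and 99.9, 115 and 109 FPKM in low-dose libraries, and at 157, 158 and 149 FPKM at high dose. Osgin1, an oxidative stress-induced growth inhibitor, was lower in all 3 low-dose libraries, at 9.19, 10.1 and 7.27 FPKM without particles and 5.25, 5.86 and 5.65 FPKM with them, a log2 fold change of -0.57 (95% interval -0.85 to -0.28) with an unadjusted p of 0.0015, and at 6.54, 8.45 and 8.30 FPKM at high dose. Gclc and Txnip thus lay above and Osgin1 below all their control values. By contrast Srxn1 (sulfiredoxin) was at 66.4, 66.9 and 64.1 FPKM in control cells against 61.97, 65.3 and 70.9 FPKM at low dose and Prdx1 (peroxiredoxin 1) at 457, 473 and 444 FPKM in control and 416, 437 and 485 FPKM in low-dose libraries, with overlapping groups. Gdf15, a stress-induced cytokine, was higher in all 3 low-dose libraries, at 10.7, 12.3 and 11.9 FPKM without particles and 15.7, 14.2 and 15.8 FPKM with them, a log2 fold change of 0.36 (95% interval 0.11 to 0.61). Among p53 targets Cdkn1a (p21) was at 17.8, 19.9 and 17.9 FPKM in control cells against 21.4, 18.3 and 22.3 FPKM at low dose, and Sesn1 (sestrin 1) was lower at 14.8, 13.7 and 14.7 FPKM in control and 12.8, 13.1 and 13.1 FPKM in low-dose libraries. The low-dose range of Cdkn1a overlapped the control range, and that of Sesn1 did not. Mcl1, the most abundant anti-apoptotic Bcl2 family member, was at 185, 194 and 207 FPKM without particles and 215, 206 and 231 FPKM with them, a log2 fold change of 0.15 (95% interval -0.011 to 0.32).

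Inflammatory genes had few members with a small p at 10 µg/ml. Over 9 families 210 genes were tested, 4 (1.9%) had an unadjusted p under 0.05, and 180 (85.7%) lay within 1.5-fold, shares next to 3.28% and 83.7% of all genes. The 4 were Icam1, an adhesion molecule for leukocytes (21.7, 21.7 and 20.04 FPKM in control cells against 19.6, 18.9 and 19.2 FPKM at low dose), Txnip, described above, Cd1d1, which presents lipids (1.08, 0.416 and 0.502 FPKM in control and 1.66, 1.79 and 0.879 FPKM in low-dose libraries), and Cd59a, an inhibitor of the complement pore (1.10, 1.06 and 0.779 FPKM without particles and 1.75, 1.65 and 1.48 FPKM with them). Cd1d1 averaged under 1 FPKM in control and at high dose and entered the test only through the low-dose libraries. Tnf, the cytokine TNF-alpha, was at 29.6, 25.3 and 30.2 FPKM in control cells against 30.9, 33.8 and 32.5 FPKM at low dose, a log2 fold change of 0.19 (95% interval -0.016 to 0.40). Its 3 low-dose values were just above the control values, and the interval reached 0. Il1a was at 6.67, 7.24 and 6.14 FPKM in control and 8.21, 6.79 and 8.24 FPKM in low-dose libraries, and Nfkbia, the inhibitor of NF-kB that NF-kB itself induces, at 46.00, 45.5 and 44.4 FPKM without particles and 42.3, 44.7 and 43.5 FPKM with them. The chemokines Ccl3 (246, 228 and 217 FPKM in control cells against 238, 226 and 244 FPKM at low dose) and Ccl2 (159, 161 and 126 FPKM in control and 135, 145 and 145 FPKM in low-dose libraries) overlapped between the groups. Tlr2, a receptor for bacterial lipoproteins, was lower in each low-dose library at 45.6, 46.8 and 46.3 FPKM without particles and 41.8, 42.8 and 44.1 FPKM with them, with an interval of -0.24 to 0.028 that contained 0. Among chemokines, cytokines and interferon-stimulated genes, 8 of 12, 14 of 19 and 23 of 32 lay within 1.5-fold (66.7%, 73.7% and 71.9%, next to 83.7% of all genes). Their median levels were 15.7, 15.5 and 6.78 FPKM. At 5 to 20 FPKM the share was 89.7% of all genes, so these families lay within the bound less often than genes of such levels.

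Of the genes that the study also measured by RT-qPCR or staining, several were too low to be tested. Ccr1, a chemokine receptor, was at 0.289, 0.386 and 0.483 FPKM in control and 0.33, 0.411 and 0.324 FPKM in low-dose libraries, and Csf3, the granulocyte colony-stimulating factor, at 0.489, 0.279 and 0.17 FPKM in control and 0.394, 0.444 and 0.302 FPKM in low-dose libraries. For Cxcl3 the 3 control libraries and low-dose library 2 listed 0. Ahr and Mylk stayed under 0.1 FPKM and Cbs was listed at 0 in the 6 control and low-dose libraries, so that no change in them could be seen at this depth. Fpr1, the formyl peptide receptor, was at 1.91, 2.17 and 2.49 FPKM in control cells against 1.95, 1.37 and 1.45 FPKM at low dose, a log2 fold change of -0.31 (95% interval -0.64 to 0.029), and at 0.335, 0.599 and 0.694 FPKM at high dose. Slc1a4, a transporter of neutral amino acids, was at 5.82, 7.03 and 6.80 FPKM in control and 7.08, 6.45 and 5.80 FPKM in low-dose libraries, and Slc6a9, a glycine transporter, at 6.89, 7.68 and 11.6 FPKM in control and 7.01, 7.22 and 6.45 FPKM in low-dose libraries. In Fpr1, Slc1a4 and Slc6a9 the groups overlapped. Serpinf1, a secreted serpin, ranged over 2.35, 3.47 and 5.01 FPKM without particles and 1.82, 3.47 and 2.57 FPKM with them. Aif1, which encodes the microglial protein Iba1, was lower in all 3 low-dose libraries, at 7.09, 6.30 and 6.22 FPKM in control cells against 5.17, 4.09 and 5.65 FPKM at low dose, with a log2 fold change of -0.34 (95% interval -0.72 to 0.032), and at 3.92, 4.92 and 2.76 FPKM at high dose.

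Genes of microglial state were held in 2 lists. In the disease-associated list, the genes that microglia express more of around damage, 30 of 30 lay within 1.5-fold. Each of the following 3 overlapped between the groups. Spp1 (osteopontin) was at 5632, 5614 and 5379 FPKM in control and 5584, 5463 and 5949 FPKM in low-dose libraries, Trem2, a lipid-sensing receptor, at 139, 142 and 119 FPKM without particles and 133, 128 and 117 FPKM with them, and Lpl (lipoprotein lipase) at 734, 761 and 715 FPKM in control cells against 674, 755 and 685 FPKM at low dose. Cst7 (cystatin F), an inhibitor of lysosomal cysteine proteases, was lower without overlap, at 9.07, 9.88 and 9.21 FPKM in control and 7.42, 7.41 and 8.07 FPKM in low-dose libraries, a log2 fold change of -0.27 (95% interval -0.43 to -0.11) with an unadjusted p of 0.0046. Ank, a pyrophosphate exporter, was higher at 25.3, 26.9 and 31.2 FPKM without particles and 32.5, 32.2 and 31.5 FPKM with them. The list of microglial identity genes had 22 of 28 within 1.5-fold (78.6%, next to 83.7% of all genes) and none with an unadjusted p under 0.05. Its mean deviation from the control mean was 0.026, 0.016 and -0.042 in the control libraries, on the log2 scale. In the low-dose libraries it was -0.034, -0.056 and -0.035, so the groups overlapped. Of the 28, 19 were on the negative side (67.9%, next to 49.8% of all genes), 5 lay below all control libraries (17.9%, next to 4.61% of all genes) and 1 lay above (3.57%, next to 6.14% of all genes). Among the 5 were C1qa, a chain of the complement component C1q (7.27, 8.46 and 7.17 FPKM in control cells against 6.27, 6.18 and 6.64 FPKM at low dose), C1qb, another chain (198, 201 and 187 FPKM in control and 182, 168 and 185 FPKM in low-dose libraries), Emr1, which encodes the macrophage marker F4/80 (199, 208 and 200.4 FPKM without particles and 192, 193 and 189 FPKM with them), and Aif1, described above. The genes of C1q lie side by side and are not independent of each other. By contrast, Itgam (CD11b) was at 57.9, 63.00 and 64.6 FPKM in control cells against 63.4, 61.9 and 64.3 FPKM at low dose.

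Metabolic families were stable in most members. Over 6 of them 179 genes were tested, 2 (1.12%, next to 3.28% of all genes) had an unadjusted p under 0.05 and 170 (94.97%, next to 83.7% of all genes) lay within 1.5-fold. Ldha (lactate dehydrogenase A) was at 1675, 1652 and 1574 FPKM in control and 1659.7, 1585 and 1635 FPKM in low-dose libraries, and Slc2a1, the glucose transporter GLUT1, at 135, 138 and 130.0 FPKM without particles and 138, 133 and 138 FPKM with them. Of the enzymes of serine, glycine and one-carbon metabolism, 21 of 24 lay within 1.5-fold (87.5%, next to 83.7% of all genes) and none had an unadjusted p under 0.05. The median level of this family was 44.2 FPKM, and at 20 to 100 FPKM 96.8% of all genes lay within 1.5-fold. On the negative side were 15 (62.5%, next to 49.8% of all genes). The extremes were Sdsl, a serine dehydratase-like enzyme (1.53, 2.54 and 1.98 FPKM in control cells against 2.76, 4.69 and 2.35 FPKM at low dose), and Aldh1l2, a mitochondrial folate enzyme (1.97, 3.20 and 3.30 FPKM in control and 2.35, 2.57 and 1.90 FPKM in low-dose libraries), both with overlapping groups. In serine synthesis itself Phgdh, which starts the pathway, was at 90.3, 88.9 and 90.5 FPKM without particles and 90.1, 87.4 and 92.6 FPKM with them and Psat1, the aminotransferase that follows it, at 348, 353 and 353 FPKM in control cells against 351, 343 and 345 FPKM at low dose. The genes with a small p were Dgat2, which makes triacylglycerol (9.06, 8.93 and 8.72 FPKM in control and 9.84, 9.79 and 11.8 FPKM in low-dose libraries), and Aars2, the mitochondrial alanyl-tRNA synthetase (7.19, 6.92 and 7.25 FPKM without particles and 7.94, 8.27 and 7.85 FPKM with them), neither of which overlapped between the groups.

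Ribosomal and respiratory chain genes carried the most negative medians, and their level also differed between libraries of one group. Of the 76 ribosomal protein genes tested, 62 were on the negative side (81.6%, next to 49.8% of all genes), with a median of -0.11, and of 75 nuclear-encoded genes of oxidative phosphorylation 61 were (81.3%), with a median of -0.098. The interval lay within 1.5-fold for 62 of the 76 (81.6%) and 62 of the 75 (82.7%), next to 83.7% of all genes. Within 1.2-fold lay 6 (7.89%) and 16 (21.3%), next to 38.1% of all genes. Their median levels were 90.3 and 83.3 FPKM, and at 20 to 100 FPKM the shares of all genes were 96.8% and 58.1%. Both families thus lay within the bounds less often than genes of such levels. The mean deviation of the ribosomal genes from the control mean was 0.11, -0.021 and -0.09 in the control libraries and -0.13, -0.16 and -0.026 in the low-dose libraries, on the log2 scale. For oxidative phosphorylation it was 0.13, -0.013 and -0.12 in control and -0.12, -0.17 and -0.031 in low-dose libraries. Control library 1 was the highest and low-dose library 2 the lowest in both, and the values of the groups overlapped. The medians moved in both directions when a library was left out. They were -0.033 and -0.035 without control library 1, and -0.15 and -0.16 without control library 3. For the ribosomal genes the median was -0.069 without low-dose library 1 and -0.15 without low-dose library 3. All stayed on the negative side. The longest transcripts of these genes are short (medians of 1054 and 1231 nt), and the median deviation of protein-coding genes under 1000 nt had the same sign as theirs in each of the 6 libraries. It was 0.13, -0.015 and -0.11 in the control and -0.14, -0.15 and -0.031 in the low-dose libraries (404 genes), against -0.026, 0.0054 and 0.021 and 0.023, 0.024 and -0.023 for genes of 4000 nt or more. The 404 genes include members of both families, such as Rpl11 (longest transcript 917 nt) and Uqcrb (565 nt), so some of this match in sign is built in. The part of transcript length in the family values was not tested. The 39 proteasome genes had deviations of 0.035, 0.015 and -0.05 in control and -0.05, -0.073 and -0.0035 in low-dose libraries and a median of -0.032. On the negative side were 29 of them (74.4%, next to 49.8% of all genes).

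Single genes of these families need care, since ribosomal protein genes have many processed pseudogenes whose reads can be split between copies. Rpl11 had the smallest p of the family, at 56.8, 59.2 and 52.3 FPKM in control cells against 38.5, 40.3 and 42.01 FPKM at low dose, a log2 fold change of -0.47 (95% interval -0.70 to -0.24), and at 44.7, 33.1 and 39.9 FPKM at high dose (adjusted p = 0.0394 against the same control libraries, limma). Rpl10a (116, 116 and 109 FPKM in control and 125, 127 and 135 FPKM in low-dose libraries) and Rpl3 (109.7, 113 and 105 FPKM without particles and 118, 117 and 121 FPKM with them) were on the other side, higher in each low-dose library. Rps15a ranged from 24.2 to 357 FPKM, with its highest value in control library 3. In the respiratory chain Uqcrb, a subunit of complex III, was at 90.9, 88.4 and 78.8 FPKM in control cells against 69.8, 68.3 and 70.5 FPKM at low dose, and Ndufa4, a cytochrome c oxidase subunit, at 245, 226 and 213 FPKM in control and 210.0, 184 and 194 FPKM in low-dose libraries. Neither Uqcrb nor Ndufa4 overlapped between the groups. Psma3, a subunit of the proteasome core, was at 176, 169.8 and 138 FPKM without particles and 131, 128 and 141 FPKM with them, where control library 3 lay within the low-dose range. In the cell cycle, Mki67, the Ki-67 antigen of dividing cells, was at 70.5, 72.00 and 70.2 FPKM in control cells against 67.1, 71.5 and 63.3 FPKM at low dose and Ccne2 (cyclin E2) at 30.8, 28.4 and 29.96 FPKM in control and 23.6, 24.7 and 29.5 FPKM in low-dose libraries. Pcna, the sliding clamp of replication, was at 248, 227 and 199.9 FPKM without particles and 192, 216 and 216 FPKM with them. In all 3 the groups overlapped.

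**Figure D4:**
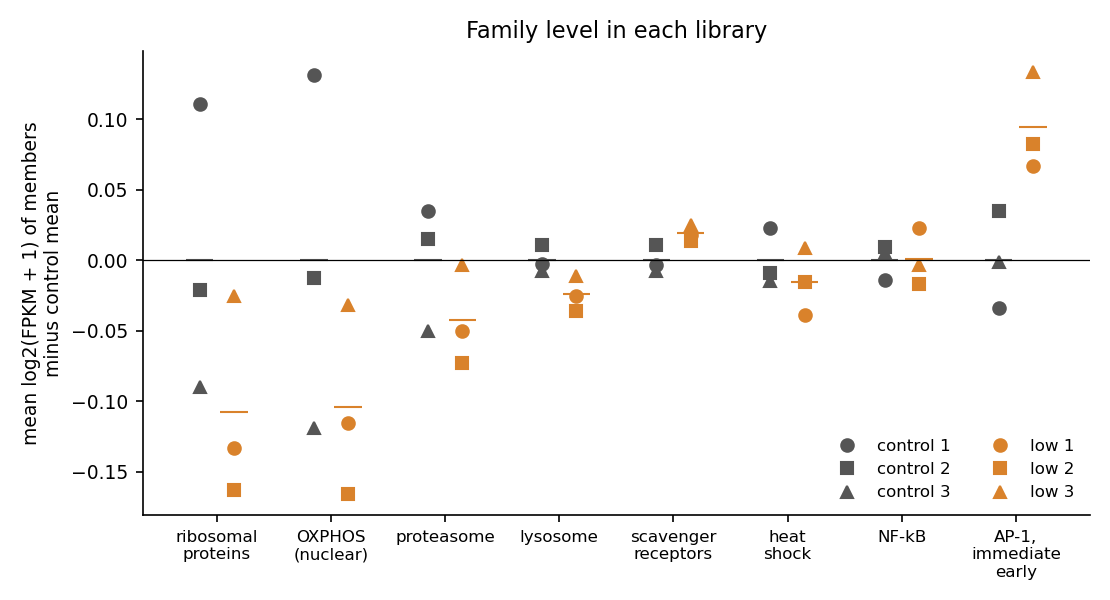
Mean log2(FPKM + 1) of the tested members of 8 gene families in each library, as the difference from the mean of the 3 control libraries, for control (grey) and low dose (orange), with library numbers by symbol and group means as short lines. Ribosomal and oxidative phosphorylation genes spread widely among the control libraries, and the AP-1 and immediate early genes lie above all control values in the 3 low-dose libraries.

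AP-1 and immediate early genes were the family with the highest median. These encode transcription factors and feedback regulators whose mRNA is induced within minutes of a stimulus and is short-lived. Of the 30 tested, 23 were on the positive side (76.7%, next to 50.05% of all genes), and the median log2 fold change was 0.11, or 0.08 to 0.12 over the 16 alternatives. The mean deviation from the control mean was -0.034, 0.035 and -0.001 in the control libraries and 0.067, 0.083 and 0.13 in the low-dose libraries, so the groups did not overlap. In 3 other families the 3 low-dose scores also lay beyond the control scores, by less, the scavenger receptors above and the lysosome and unfolded protein response below. All 3 low-dose libraries were above all controls for 8 AP-1 and immediate early members (26.7%, next to 6.14% of all genes) and below for none, next to 4.61% of all genes. The members were measured in the same 6 libraries and are not independent of each other. No member passed the adjusted threshold, 3 had an unadjusted p under 0.05 (10%, next to 3.28% of all genes), and 28 (93.3%, next to 83.7% of all genes) lay within 1.5-fold.

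Single members of the family varied in size and in whether the groups overlapped. Fos was at 4.88, 6.61 and 5.45 FPKM in control cells against 7.92, 6.43 and 9.22 FPKM at low dose, a log2 fold change of 0.41 (95% interval 0.014 to 0.81). It had the largest fold change of the family, but low-dose library 2 was below control library 2, and at high dose Fos was at 4.56, 3.83 and 6.27 FPKM, on the control level. Jun was at 40.8, 45.1 and 44.03 FPKM in control and 46.9, 46.6 and 47.5 FPKM in low-dose libraries, a log2 fold change of 0.12 (95% interval -0.015 to 0.25), and Junb at 50.2, 51.2 and 51.1 FPKM without particles and 57.7, 55.7 and 55.7 FPKM with them, a log2 fold change of 0.15 (95% interval -0.017 to 0.31). Both kept the groups apart with intervals that reached 0. Jund was at 16.4, 18.3 and 16.1 FPKM in control cells against 18.2, 20.7 and 20.9 FPKM at low dose and Fosl1 at 11.2, 11.4 and 12.3 FPKM in control and 11.98, 12.7 and 13.1 FPKM in low-dose libraries. In both, the lowest low-dose value lay within the control range. Atf3, the most abundant member, was at 84.2, 87.6 and 88.03 FPKM without particles and 93.6, 80.97 and 96.6 FPKM with them, with overlapping groups. Of the phosphatases that switch off MAP kinases, Dusp2 was at 11.5, 10.8 and 11.1 FPKM in control cells against 13.6, 12.7 and 15.1 FPKM at low dose, a log2 fold change of 0.28 (95% interval 0.061 to 0.50) with no overlap, Dusp4 at 69.3, 71.4 and 71.97 FPKM in control and 75.5, 79.2 and 74.6 FPKM in low-dose libraries and Dusp1 at 5.59, 6.50 and 5.09 FPKM without particles and 5.68, 6.41 and 7.17 FPKM with them. Dusp4 did not overlap between the groups either, and Dusp1 did. Ppp1r15a (GADD34), which directs a phosphatase to the initiation factor eIF2, was at 8.22, 7.28 and 7.71 FPKM in control cells against 9.45, 8.30 and 9.39 FPKM at low dose, a log2 fold change of 0.20 (95% interval 0.0033 to 0.40). Ier2 was at 23.1, 24.1 and 25.2 FPKM in control and 25.3, 28.5 and 30.5 FPKM in low-dose libraries, so that neither of these genes overlapped between the groups. On the negative side were Btg2, an antiproliferative gene (2.24, 2.04 and 2.32 FPKM without particles and 1.70, 1.68 and 2.27 FPKM with them), and Zfp36l1, an mRNA decay factor (13.1, 13.4 and 11.2 FPKM in control cells against 12.4, 12.6 and 9.56 FPKM at low dose), each with overlapping groups.

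The 75 genes past both the unadjusted p and the 1.5-fold cut-off (31 higher and 44 lower) were mostly of low abundance. Their median level was 2.61 FPKM, next to 17.3 FPKM over all genes tested, 54 were under 5 FPKM, and 33 were protein-coding. The 10 largest positive fold changes among genes with an unadjusted p under 0.05 and no overlap were led by Gm15776, a processed pseudogene of 205 nt (chr16:22295027-22295231 on GRCm38). Each control library listed it at 0, against 27.5, 33.1 and 28.04 FPKM in the low-dose libraries and 19.5, 0 and 0 FPKM at high dose. Ece1, an endothelin-converting metalloprotease (chr4:137862237-137965229), was next, at 229.6, 111 and 319 FPKM in control and 863, 664 and 690.3 FPKM in low-dose libraries, 3.36-fold in mean FPKM, with a log2 fold change of 1.86 (95% interval 1.03 to 2.69). Ece1 is annotated with 4 transcripts, the shortest of 172 nt, and was at 176, 177 and 313 FPKM at high dose. Foxn3, a forkhead repressor, was at 56.9, 119.8 and 137 FPKM without particles and 351, 641 and 202 FPKM with them, and its shortest annotated transcript is of 168 nt. Ap5s1, a subunit of the AP-5 adaptor of late endosomes (chr2:131207078-131213514), was at 19.7, 20.02 and 27.9 FPKM in control cells against 35.3, 33.8 and 44.5 FPKM at low dose, a log2 fold change of 0.73 (95% interval 0.41 to 1.05). It was at 21.2, 21.1 and 22.1 FPKM at high dose, and the difference between the doses was -0.78 on the log2 scale for high over low (adjusted p = 0.0475, limma). The gene value sums over transcripts, so the share of the short transcripts in these values was not tested.

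The other large positive values belonged to Hsd17b14, a steroid dehydrogenase (3.50, 1.98 and 2.35 FPKM in control and 7.51, 11.3 and 3.68 FPKM in low-dose libraries), Gata3, a transcription factor (3.15, 2.70 and 2.84 FPKM without particles and 3.80, 16.4 and 5.74 FPKM with them), Lhx1, a homeobox factor (1.57, 2.30 and 1.56 FPKM in control cells against 2.67, 4.02 and 6.46 FPKM at low dose), and to Sh3bgr, 0610012G03Rik and Gm10800. The low-dose libraries of Hsd17b14, Gata3 and Lhx1 differed widely among themselves, as the value of Gata3 in low-dose library 2 shows. Sh3bgr was at 0.294, 0.451 and 0.586 FPKM in control and 3.10, 0.743 and 3.49 FPKM in low-dose libraries and averaged under 1 FPKM at high dose too, so it entered the test only through the low-dose libraries. The 10 largest negative values were those of Gm21970, Gm12276, Gm7846, RP23-8J15.2, 2510046G10Rik, Pcca, RP23-8J15.7, Cp, Mypopos and Gm5635. Of these Pcca, a subunit of mitochondrial propionyl-CoA carboxylase, was at 49.00, 31.2 and 30.7 FPKM without particles and 29.1, 18.8 and 12.2 FPKM with them and Gm7846 at 30.2, 35.4 and 34.7 FPKM in control cells against 26.6, 16.00 and 5.02 FPKM at low dose, while Cp is described above. Genes of higher abundance entered by a small p. Anxa1, an annexin that limits inflammation, was at 118, 119.5 and 128 FPKM in control and 96.2, 96.8 and 109 FPKM in low-dose libraries, a log2 fold change of -0.27 (95% interval -0.41 to -0.14), and at 93.5, 97.2 and 97.4 FPKM at high dose (adjusted p = 0.0285 against the same control libraries, limma). Homer3, a scaffold protein of synapses, was at 15.7, 15.02 and 15.9 FPKM without particles and 20.6, 20.3 and 18.02 FPKM with them, Dph7, of the diphthamide pathway, at 10.7, 10.96 and 8.88 FPKM in control cells against 18.4, 14.1 and 13.7 FPKM at low dose and Mtif3, a mitochondrial translation initiation factor, at 11.9, 11.6 and 11.9 FPKM in control and 8.51, 8.84 and 9.70 FPKM in low-dose libraries. None of these overlapped between the groups.

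**Figure D5:**
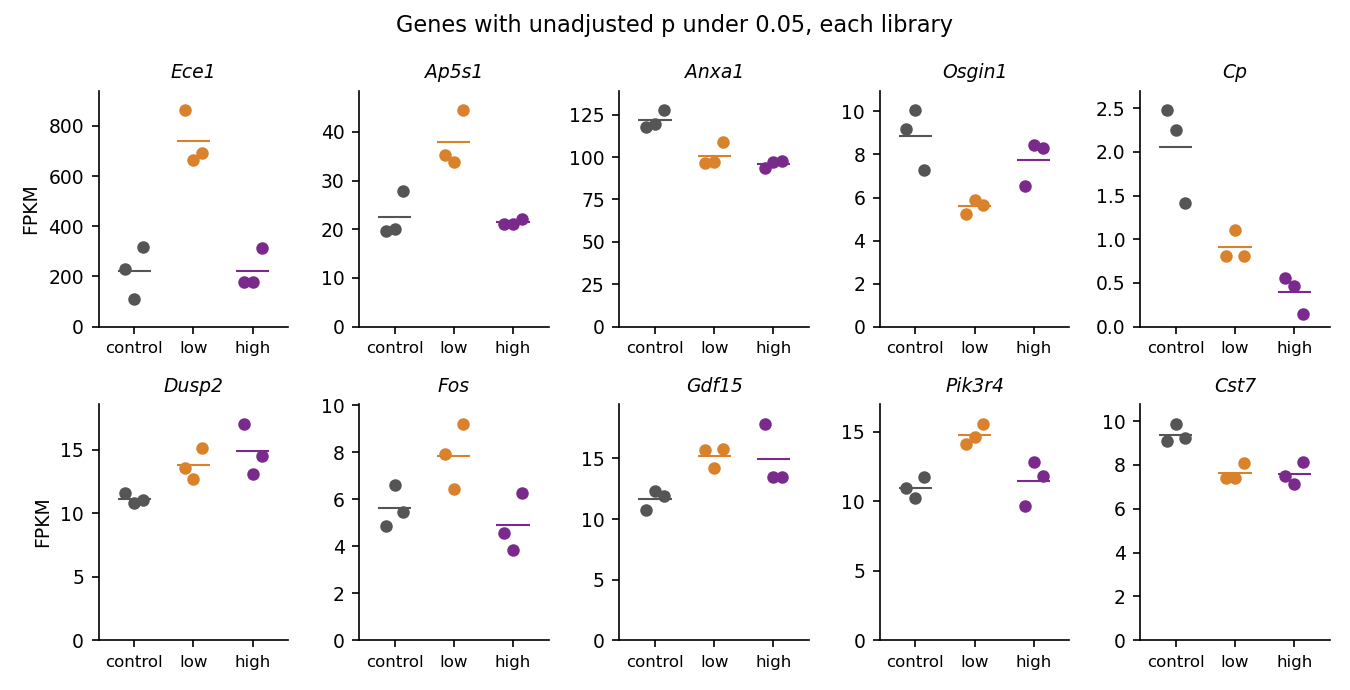
FPKM of 10 genes with an unadjusted p under 0.05 for low dose against control, in each library of the control, low-dose and high-dose groups (points) with group means (lines), on axes that start at 0. Ece1 and Ap5s1 are higher in the low-dose than in the control and high-dose libraries, Anxa1 and Cst7 are lower at both doses, Cp entered the test only through the control libraries, and no gene passed the adjusted threshold at low dose.

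The low dose was also read at the genes that the high dose changed. These share their control libraries, so the values are given side by side without a test. Of the 236 genes called for high dose against control, 219 (92.8%) had a low-dose interval within 1.5-fold (83.7% of all genes), and 39 (16.5%) had an unadjusted p under 0.05 at low dose (3.28% of all genes). The genes were chosen with these control libraries, so nothing is read from these shares or from the medians that follow. The 79 genes higher at high dose had a median log2 fold change of 0.36 at high dose and 0.10 at low dose. For the 157 lower at high dose it was -0.46 and -0.079.

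Of the genes tested, 28 averaged 1 FPKM or more only in the low-dose group and 33 only in the control group. The filter thus passed them through the group where they were high, and 3 of the first, each higher, and 8 of the second, each lower, had an unadjusted p under 0.05. Below the filter, 7144 genes were above 0 in at least 1 control or low-dose library, and the groups did not overlap for 475 of them (6.65%). A total of 37 had 0 in every control library and were above 0 in all low-dose libraries, and 27 the reverse. The highest of the first were the pseudogene Rps19-ps2 (1.92, 0.743 and 1.95 FPKM at low dose), the antisense gene Gm12867 (0.364, 0.717 and 0.379 FPKM) and 1300017J02Rik (0.402, 0.72 and 0.0315 FPKM). Of the second they were the pseudogenes Gm11972 (0.511, 0.473 and 0.462 FPKM in control), Gm10051 (0.429, 0.399 and 0.398 FPKM) and Gm5937 (0.361, 0.332 and 0.317 FPKM). Values of this size rest on a few fragments per library.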

How the data were processed

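RNA was measured in 9 BV2 libraries, grouped by the condition in their labels. The authors filtered reads by quality, aligned them with TopHat and deposited FPKM computed by Cufflinks 2.1.1 from the genes of Ensembl release 77 (build GRCm38), applying corrections for fragment bias and multiply mapped reads. All sample columns were used. Biotypes and transcript lengths came from GENCODE M21, which held 40122 of the 40993 identifiers. Genes that averaged 1 FPKM or more were fitted on log2(FPKM + 1) with limma 3.58.1 in R 4.3.3 (the 3 groups in one fit, eBayes with trend, two-sided, Benjamini-Hochberg over 11161 genes), a procedure tested on simulated data. Confidence intervals of 95% came from the same fit. Tables came from pandas 2.3.3 and numpy 2.4.6 under Python 3.11.15.

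The comparison, gene families and markers were chosen with earlier results of these data known. Named genes were the 10 largest differences in each direction without overlap at an unadjusted p under 0.05, the 10 smallest p, reference and RT-qPCR genes, cell markers, the narrowest intervals at 100 FPKM or more, and in each family the small p, the most abundant and the extreme members. The text prints part of them, and other family members it names, as well as the genes drawn by library, were chosen after their values were seen. The alternatives were 2 other pseudocounts, no filter, a filter at 5 FPKM, quantile and median-of-ratios scaling, the 6 libraries alone, no trend, a replicate block, leaving out each library, and, chosen after seeing the data, genes of 300 nt or more only. Mitochondrially encoded genes were not analysed here, and some single genes that this rule names are not reported here.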

Additional observations from a re-analysis of the deposited data

How the results depend on the processing

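For low dose against control, the count at an adjusted p under 0.05 (limma) was 0 as reported, 4 with no filter on low values (the pseudogenes Gm10051, Gm11972, Rps6-ps2 and RP24-347J6.3, each under 1 FPKM in control and listed at 0 at low dose), 1 with only the 6 libraries compared (Gm15776, adjusted p = 1.19e-05), 0 to 2 when a library was left out, and 0 under the other alternatives. Those calls were Snora7a without control library 1, Gm25395 and Bach2os without control library 2, and Gm16418 without low-dose library 1, of which all but the antisense gene Bach2os have no transcript of 300 nt or more. The smallest adjusted p over all alternatives was 8.04e-09, for Snora7a. Genes at an unadjusted p under 0.05 numbered 798 with no filter and 667 with only the 6 libraries compared, against 366. Those also past 1.5-fold numbered 421 with no filter and 21 with a filter at 5 FPKM, against 75. The count of genes without overlap was 2073 to 2838 when a library was left out, against 1199, as fewer libraries overlap less often. The SD of the log2 fold change was 0.46 with a pseudocount of 0.01 FPKM and 0.14 with only genes of 300 nt or more (chosen after seeing the data), against 0.24. Hsp90ab1 had a log2 fold change of 0.17 under quantile normalization, the only one of 55 named genes to change direction, and the cause was not tested.

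The share of genes on the higher side at an unadjusted p under 0.05 was 53.01%. It was 43.7% without control library 3, 45.7% without low-dose library 3 and 49.5% with the replicate block. The same replicate numbers do not pair the samples (correlations of deviations -0.025, -0.025 and -0.031). With the replicate block there were 0 adjusted calls, 364 genes at an unadjusted p under 0.05 and 72 past both cut-offs. Family medians ran from -0.16 to 0.12 over all alternatives. With 3 libraries a group, depth known only approximately and FPKM in place of counts, a 1.5-fold change was not excluded for most genes of 1 to 5 FPKM. Detection at the adjusted threshold was limited at higher levels too. In the reported fit it was passed by no gene, not even Ece1 at 3.36-fold in mean FPKM.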
